A study of Mus musculus with 4 samples.

Results

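Non-homologous end joining is carried out by a core set of 9 genes, Xrcc5, Xrcc6, Prkdc, Dclre1c, Poll, Polm, Xrcc4, Lig4 and Nhej1, and their mRNAs were followed here in mouse oocytes with and without γ-irradiation. The members were chosen by name from the known pathway, and each was taken as the sum of all transcripts listed under its mouse NCBI gene ID. They make up 9 of the 17374 genes and 42 of the 45505 RefSeq transcripts in the deposited table. All 9 passed the filter on low counts that left 12569 genes for testing.

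A germinal vesicle (GV) stage oocyte is an oocyte held in the prophase of the first meiotic division with its nucleus intact. The GV oocytes came from non-primed females at postnatal day 16, of a C57/Bl6/DBA2J F1 hybrid background, and cumulus cells had been stripped off by pipetting. Every oocyte was kept in medium with milrinone, a phosphodiesterase inhibitor that prevents meiotic resumption. The control group received no irradiation (0 Gy, 2 libraries), and the irradiated group received 5 Gy of γ-rays from a Cesium-137 source in M2 medium with milrinone and was collected 24 h later (2 libraries). The methods give 59 oocytes for each condition and describe the replicates as independent experiments, and they do not say whether 59 is per library. The culture time of the control oocytes is not given in the sources used here, so that irradiation and time in culture cannot be told apart. The sequencing was meant to shed light on how the condensed satellite chromatin of the oocyte loosens after irradiation.

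Double-strand breaks are among the most toxic lesions made by γ-rays, and end joining rejoins the broken ends directly, without copying a template. The Ku heterodimer, encoded by Xrcc6 (Ku70) and Xrcc5 (Ku80), encircles the broken end and recruits the kinase DNA-PKcs, the product of Prkdc. Artemis (Dclre1c) trims ends that cannot be joined as they are, the polymerases lambda (Poll) and mu (Polm) fill small gaps, and DNA ligase IV (Lig4) seals the break together with XRCC4 and XLF (Nhej1). Prophase oocytes hold homologous chromosomes and sister chromatids, so that recombination is also open to them, and their mRNA pool contains messages stored for later translation as well as those in current use.

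Estimated counts summed to between 33349466 and 37232818 per library. All 15 oocyte markers were listed, with a summed level of 47961 to 54180 TPM, a level that is corrected for transcript length and has an equal total in every library. Of 12 granulosa and cumulus markers, 8 were listed and summed to 16.7 to 22.3 TPM. Cyp19a1 (528 to 543 counts), Nr5a2 (382 to 702), Kitl (172 to 222) and Fshr (91 to 148) were present in every library, Hsd17b1 and Has2 lay at or under 3 counts in every library, and Amh and Foxl2, which define these cells, were not listed. Of 6 theca and stroma markers, 4 were listed and summed to 0.39 to 0.54 TPM. Of 6 blood and endothelium markers, only 2 were listed, Cd68 and Pecam1, which summed to 5.54 to 9.29 TPM. Irradiated library 2 stood apart on the first principal component (60.8% of the variance), at 40.6 against -19.1 to -8.63 in the other libraries. It held both the highest granulosa sum and the lowest oocyte sum, but members of both lists went either way there. Of the oocyte markers, Dppa3 (16142 TPM), Zp2 (1937) and Ooep (1595) were among those at their lowest. Zp3 (15620), Zp1 (2579) and Nobox (1215) were among those at their highest. Of the granulosa markers, Nr5a2 (7.43 TPM) was at its highest and Kitl (1.45) at its lowest. The part of irradiated library 2 in the results below was not tested beyond leaving it out.

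The end-joining genes fell into an abundant and a scarce group. Their mean levels over the 4 libraries spanned 0.615 ± 0.214 TPM for Prkdc to 117 ± 20.4 TPM for Nhej1 (SD, n = 4), and their median was 37.3 TPM, against 4.16 TPM for all genes tested. Nhej1 stood highest, at the 91.7th percentile of tested genes. Xrcc5 at 84.1 ± 3.55 TPM and Dclre1c at 83.0 ± 6.20 TPM came next, and their ranges over the libraries overlapped, so that these neighbours were not distinct. Xrcc4 at 47.3 ± 12.0 TPM and Xrcc6 at 37.3 ± 1.70 TPM likewise overlapped. Below Xrcc6 came a 5.53-fold step to Lig4, at 6.75 ± 1.17 TPM. The gap-filling polymerases followed, with 3.65 ± 0.922 TPM for Poll and 2.79 ± 0.627 TPM for Polm, whose ranges overlapped although Poll was the higher in each of the 4 libraries. A further 4.53-fold step in TPM separated Polm from Prkdc, which stood at the 17.7th percentile. Before the length correction, the estimated counts of these genes overlapped. Prkdc had 192, 142, 149 and 264 in control 1, control 2, irradiated 1 and irradiated 2, and Polm 150, 166, 155 and 218. The ligase and the kinase were thus the scarcest in their complexes on the TPM scale, with Lig4 below both of its partners and Prkdc below both Ku genes in every library.

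**Figure D1:**
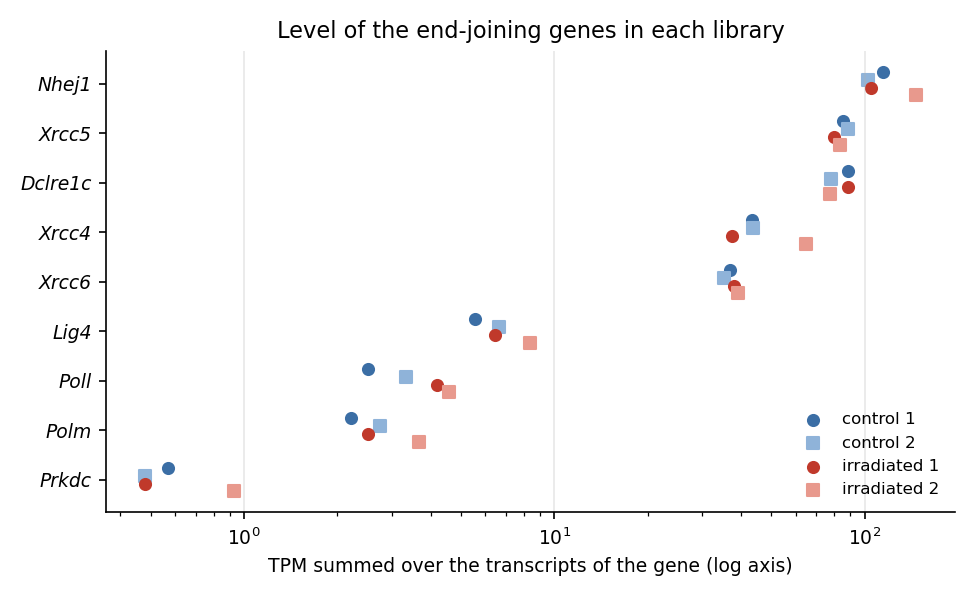
Level of each end-joining gene in each of the 4 libraries, as TPM summed over the transcripts of the gene on a log axis, ordered by mean level. Circles are libraries numbered 1 and squares libraries numbered 2, in blue for control and red for irradiated, and the 5 genes from Nhej1 to Xrcc6 lie at 35.2 TPM or more in all libraries while the other 4 lie at 8.37 TPM or less.

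The genes nearest to Nhej1 in level over the 4 libraries, by Euclidean distance of log2(TPM + 1), were Lamtor2 (distance 0.135), Rnf34 (0.173) and Timm13 (0.179). These encode a subunit of the lysosomal Ragulator complex, a RING-finger ubiquitin ligase and a mitochondrial import chaperone. The distance rests on 4 values per gene and was not tested.

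The promoters are shown for the Ku pair, whose subunits act as a heterodimer and whose level ratio is reported below, and for Nhej1, the most abundant member. Each is the 250 bases upstream of a start site in RefSeq (GRCm38.p6), printed 5′ to 3′ along the gene, and capitals mark CCAAT or GGGCGG read on either strand (ATTGG and CCGCCC on the other). The windows are Xrcc5 at chr1:72307171-72307420 on the plus strand, Xrcc6 at chr15:82016119-82016368 on the plus strand and Nhej1 at chr1:75125227-75125476 on the minus strand.
Xrcc5: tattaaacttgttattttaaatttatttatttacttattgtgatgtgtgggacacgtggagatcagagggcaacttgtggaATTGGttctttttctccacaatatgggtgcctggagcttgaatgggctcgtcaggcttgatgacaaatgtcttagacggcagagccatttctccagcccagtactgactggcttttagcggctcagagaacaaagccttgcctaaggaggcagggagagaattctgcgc
Xrcc6: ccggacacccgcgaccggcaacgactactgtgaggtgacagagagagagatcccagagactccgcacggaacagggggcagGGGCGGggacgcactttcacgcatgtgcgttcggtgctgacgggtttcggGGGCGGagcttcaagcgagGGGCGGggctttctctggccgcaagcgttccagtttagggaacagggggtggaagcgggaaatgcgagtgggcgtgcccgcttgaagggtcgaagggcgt
Nhej1: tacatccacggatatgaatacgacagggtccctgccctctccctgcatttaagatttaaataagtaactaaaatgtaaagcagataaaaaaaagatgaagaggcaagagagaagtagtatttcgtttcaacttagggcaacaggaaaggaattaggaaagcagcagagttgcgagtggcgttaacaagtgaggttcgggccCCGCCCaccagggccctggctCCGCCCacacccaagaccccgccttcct
The Ku promoters differed in composition. The Xrcc5 window had 44.8% GC with 1 CCAAT and 0 GGGCGG, and the Xrcc6 window had 65.2% GC with 0 CCAAT and 3 GGGCGG, against a median of 52.4% GC over 32851 windows of all genes. The Nhej1 window had 48.4% GC and 2 copies of GGGCGG. Windows were found for 7 of the 9 genes, with 2 for Lig4, and those for Prkdc and Poll were not among them. Of these 8 windows, GGGCGG was present in 6 and CCAAT in 3, against 32.7% and 33.8% of all windows, and the p53 motif of 10 letters was present in 0 against 7.1%. The motifs overlap neither each other nor a neighbouring copy in the printed windows.

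After irradiation, no end-joining gene passed the test for a change in total mRNA. Of the 9 gene totals, 0 passed an adjusted p under 0.05 with a log2 fold change above 2 in size in edgeR's quasi-likelihood test, where 0.00796% of all genes passed, and the result was also 0 without the fold limit. At an unadjusted p under 0.05 the count was 0 of 9, against 5.92% of all genes. DESeq2 with no filter and limma on TPM likewise called 0, with 0 at an unadjusted p under 0.05. The 9 fitted log2 fold changes (irradiated over control) ran from -0.30 for Xrcc5 to 0.37 for Poll, 4 above and 5 below 0, with a median of -0.026 beside 0.010 for all genes tested. The 95% intervals reached no further than -0.75 for Dclre1c on the lower side and 0.84 for Poll on the upper side. In normalized counts (counts divided by the effective library size and brought to a common depth), Poll was higher in both irradiated libraries than in both controls, as were 22.1% of all genes, and Xrcc5 was lower, as were 19.9%. The other 7 genes overlapped between the groups. These tests measure the spread between 2 libraries a group, and in bulk RNA a smaller number of cells and less mRNA per cell cannot be told apart.

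**Figure D2:**
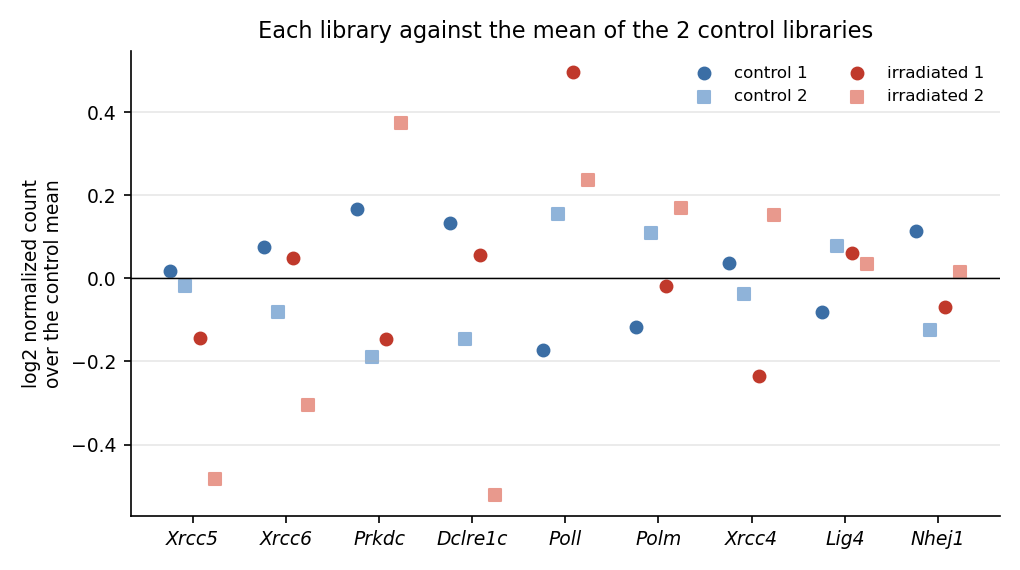
Log2 normalized count of each end-joining gene in each library over the mean of the 2 control libraries, with genes in the order of their roles from Ku to the ligase complex. Only for Poll and Xrcc5 do both irradiated libraries (red) fall on one side of both controls (blue), and irradiated library 2 (light red square) is the lowest for Xrcc5, Xrcc6 and Dclre1c.

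Of the Ku subunits, Xrcc5 (chr1:72307417-72394953, RefSeq GRCm38.p6) was at 5675 and 5531 normalized counts in control oocytes and at 5073 and 4007 after irradiation. Both irradiated values lay below both controls, and the gap between the irradiated libraries exceeded that between the controls. The group means were 5603 ± 102 and 4540 ± 754 normalized counts (SD, n = 2), a log2 fold change of -0.30 (SE 0.171, 95% interval -0.71 to 0.10, edgeR adjusted p = 0.708). On the TPM scale the levels were 85.1 and 88.2 in controls and 79.7 and 83.2 in irradiated oocytes, also without overlap, as for 5.88% of all genes in this direction. On log2(TPM + 1) the fold change was -0.088, where the median of all genes was 0.145. Relative to that median it was -0.23 (-0.17 with no filter, -0.30 with a pseudocount of 0.1). On counts, the size of the difference rested on the choice of irradiated library. It was -0.50 when irradiated library 1 was left out, which sets the controls against irradiated library 2 alone, and -0.14 when irradiated library 2 was.

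Xrcc6 (chr15:81987833-82040085), the partner subunit, was at 1999 and 1793 normalized counts in control oocytes and 1962 and 1535 after irradiation. The groups overlapped, since irradiated library 1 lay between the controls. The log2 fold change was -0.12 (SE 0.164, 95% interval -0.51 to 0.27, edgeR adjusted p = 0.824). It turned to 0.095 on log2(TPM + 1), where the levels were 37.0, 35.2, 38.0 and 39.2 TPM in control 1, control 2, irradiated 1 and irradiated 2, and both irradiated values lay above both controls, as for 32.8% of all genes. All genes together moved by a median of 0.145 on that scale, so that relative to the median gene Xrcc6 stood at -0.050. This was 0.016 with no filter on low values and -0.117 with a pseudocount of 0.1. On counts, the fold change was -0.32 without irradiated library 1, which sets the controls against irradiated library 2 alone. It was 0.050 without irradiated library 2.

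The ratio of the subunits does not depend on the scaling between libraries. Xrcc5 over Xrcc6 was 2.30 and 2.50 in control oocytes and 2.10 and 2.12 after irradiation, as a ratio of TPM. Both irradiated ratios were the lower ones, by -0.19 on the log2 scale, and the two-sided exact permutation p was 0.333, the smallest that 2 libraries against 2 allow. In 344 exonic bases Xrcc6 overlaps Desi1 on the opposite strand, which had 274, 274, 354 and 592 counts, and whether counting used the strand is not given in the sources used here.

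Prkdc (chr16:15637444-15842239), the kinase that Ku recruits, was the scarcest member on the TPM scale in every library, at 0.57, 0.48, 0.48 and 0.93 TPM in control 1, control 2, irradiated 1 and irradiated 2. Its leading transcript is 12647 bases long with 86 exons, and the count behind these levels was 192, 142, 149 and 264. Irradiated library 2 was the highest of the 4 and irradiated library 1 fell between the controls, so the groups overlapped. The log2 fold change of Prkdc was 0.14 (SE 0.238, 95% interval -0.42 to 0.70, edgeR adjusted p = 0.851). Its direction depended on single libraries, with 0.36 without irradiated library 1, -0.15 without irradiated library 2 and -0.031 without control library 2.

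The nuclease gene Dclre1c (chr2:3424061-3474211) had the largest count of the set, with 8641 and 7124 normalized counts in control oocytes and 8199 and 5496 after irradiation. Irradiated library 1 lay between the controls and irradiated library 2 below both. The means were 7882 ± 1073 and 6847 ± 1912 normalized counts (SD, n = 2), a log2 fold change of -0.20 (SE 0.231, 95% interval -0.75 to 0.35, edgeR adjusted p = 0.790). In TPM the libraries numbered 1 read 88.4 in both groups and those numbered 2 read 77.8 in control and 77.5 in irradiated oocytes, so the groups had nearly the same pair of levels. The median of all genes moved by 0.145 on log2(TPM + 1). Relative to that median Dclre1c stood at -0.147 (-0.081 with no filter, -0.216 with a pseudocount of 0.1). On counts, the fold change was -0.53 when irradiated library 1 was left out, and without irradiated library 2 it turned to 0.057. With irradiated library 1 left out, which sets the controls against irradiated library 2 alone, 34.3% of all genes passed an adjusted p under 0.05, and Xrcc5, Xrcc6 and Dclre1c were the 3 end-joining genes among them.

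**Figure D3:**
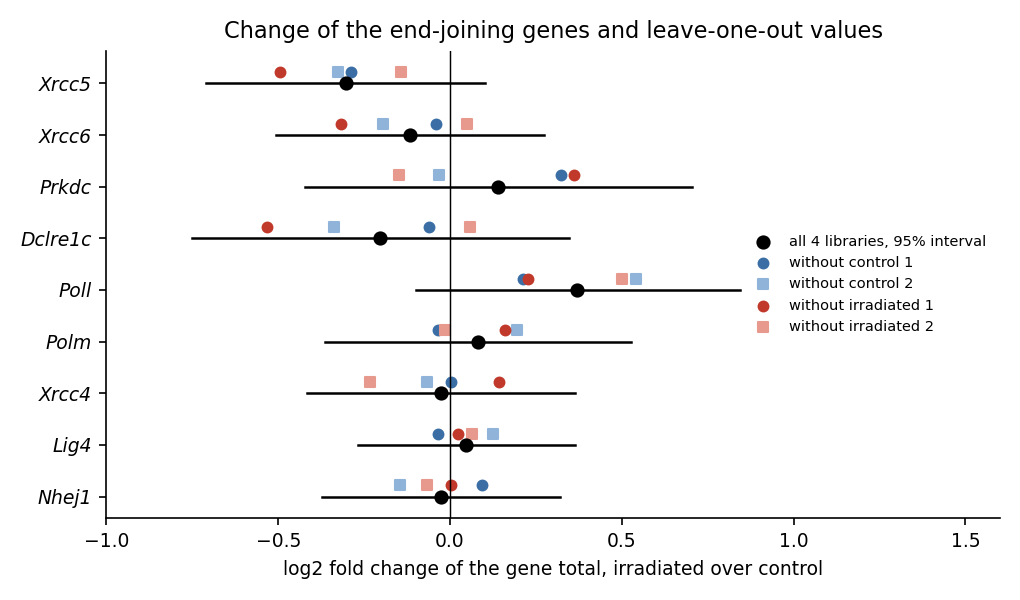
Log2 fold change of each end-joining gene, irradiated over control, from edgeR on gene totals. Black points are the fit on all 4 libraries with lines for the 95% interval, all of which include 0, and coloured symbols give the value when the library of that symbol is left out. The value without irradiated library 1 (dark red circle) is the lowest for Xrcc5, Xrcc6 and Dclre1c.

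The gap-filling polymerases were both scarce. Poll (chr19:45552275-45560564), a template-dependent enzyme, was at 154 and 193 normalized counts in control oocytes and 245 and 204 after irradiation. Both irradiated values were above both controls, and the libraries numbered 2 of the groups lay closest. Its log2 fold change was the highest of the set at 0.37 (SE 0.199, 95% interval -0.10 to 0.84, edgeR adjusted p = 0.708). The TPM levels were 2.52 and 3.32 in control oocytes and 4.18 and 4.59 after irradiation. These did not overlap either, as for 32.8% of all genes in this direction on that scale. The value stayed above 0 with each library left out, between 0.21 without control library 1 and 0.54 without control library 2, and 0.23 without irradiated library 1.

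Polm (chr11:5827860-5838832), which can also bridge ends that share no paired bases, was at 154 and 180 normalized counts in control oocytes and 165 and 188 after irradiation. The groups overlapped. The log2 fold change was 0.082 (SE 0.188, 95% interval -0.36 to 0.53, edgeR adjusted p = 0.889), and it turned to -0.034 without control library 1 and -0.015 without irradiated library 2. The ratio of Poll to Polm in TPM was 1.14 and 1.21 in control oocytes and 1.67 and 1.25 after irradiation. Both irradiated ratios were the higher ones, by 0.30 on the log2 scale (two-sided exact permutation p = 0.333, again the smallest possible). Leaving out irradiated library 1 gave a difference of 0.095, and leaving out irradiated library 2 gave 0.51.

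In the ligase complex, Lig4 (chr8:9970020-9977680) was at 609 and 680 normalized counts in control oocytes and 672 and 660 after irradiation, and both irradiated values lay between the controls. The log2 fold change of Lig4 was 0.048, with the smallest standard error of the set (SE 0.133, 95% interval -0.27 to 0.36, edgeR adjusted p = 0.909). It was -0.035 without control library 1. In TPM the levels were 5.57, 6.62, 6.45 and 8.37, with irradiated library 2 the highest.

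Xrcc4 (chr13:89848914-90089608), the scaffold that stabilises the ligase, was at 1654 and 1573 normalized counts in control oocytes and 1372 and 1795 after irradiation. The irradiated libraries lay on opposite sides of the controls. The log2 fold change was -0.027 (SE 0.165, 95% interval -0.42 to 0.36, edgeR adjusted p = 0.959), turning to 0.18 on log2(TPM + 1). Relative to the median gene that was 0.032 (0.097 with no filter, -0.035 with a pseudocount of 0.1). On counts, the fold change was 0.14 without irradiated library 1, 0.0040 without control library 1 and -0.23 without irradiated library 2. Xrcc4 over Lig4 in TPM was 7.78 and 6.60 in control oocytes and 5.81 and 7.74 after irradiation, which overlapped (log2 difference -0.096, two-sided exact permutation p = 0.667). That difference turned to 0.023 without control library 1 and 0.11 without irradiated library 1. Xrcc4 shares 112 exonic bases with Tmem167 on the opposite strand, which had 1788 to 2388 counts.

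Nhej1 (chr1:74967346-75125226), whose product XLF forms filaments with XRCC4 that hold the ends together, was at 2560 and 2168 normalized counts in control oocytes and 2255 and 2388 after irradiation. Both irradiated values lay between the controls. The log2 fold change of Nhej1 was -0.026 (SE 0.146, 95% interval -0.37 to 0.32, edgeR adjusted p = 0.955), turning to 0.19 on log2(TPM + 1). Relative to the median gene that was 0.047 (0.112 with no filter, -0.021 with a pseudocount of 0.1). In TPM the levels were 115 and 103 in control oocytes and 105 and 147 after irradiation, with irradiated library 2 the highest. The fitted value was 0.093 without control library 1 and 0.0022 without irradiated library 1.

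The 42 listed transcripts comprise 15 known RefSeq transcripts (NM) and 27 predicted by computation (XM), and 34 passed the filter. Of these, 0 were called by edgeR's quasi-likelihood test, which called 0 of 26645 transcripts in all, and 0 had an unadjusted p under 0.05, against 4.9% of all transcripts. DESeq2 with no filter and edgeR's exact test also called 0 end-joining transcripts, while they called 0.862% and 0.927% of all transcripts, and DESeq2, which gave an adjusted p for 35 of the 42, had 0 with an unadjusted p under 0.05. A transcript's count carries the error of sharing reads among overlapping transcripts. At 3 counts or under in 2 or more libraries were 9 of the 42.

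Most of the genes were carried by 1 transcript. Nhej1 has only NM_029342.4, and a single known transcript held 99.1% of the estimated count of Xrcc6 (NM_010247.2), 99.0% of Lig4 (NM_176953.3), 97.8% of Xrcc5 (NM_009533.2), 97.4% of Xrcc4 (NM_028012.4) and 91.5% of Prkdc (NM_011159.2), as means over the 4 libraries. NM_020032.3 held 88.4% of Poll, with 143 and 139 counts in control oocytes and 218 and 203 after irradiation. Those counts are before scaling, and the log2 fold change of the transcript, fitted with scaling, was 0.47 (SE 0.237, edgeR adjusted p = 1.00). The other Poll transcripts, NM_001330506.1 with 0 to 13 counts and NM_001330507.1 with 0 to 26, were at 0 in a library each.

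Polm and Dclre1c were divided among several transcripts. The predicted XM_030246158.1 held 64.3% of Polm, with 100, 108, 114 and 113 counts, and the known NM_017401.2 held 31.7%, with 50, 58, 41 and 70 counts. The counts of the predicted one were slightly higher in both irradiated libraries before scaling, with a fitted log2 fold change of 0.0085, and those of the known one overlapped. XM_006514758.3 of Polm was seen in irradiated library 2 alone, with 34 counts. Among minor predicted transcripts of other members, XM_017312854.2 of Lig4 had 25 counts in irradiated library 1 alone. XM_006495892.2 and XM_006495893.4 of Xrcc5 were each at 0 in a control and an irradiated library and present in the others. The largest fitted difference of any tested transcript was that of XM_006520445.2 of Xrcc6, at 21 and 29 counts in control oocytes and 0 and 7 after irradiation. Its log2 fold change was -3.03 (SE 1.81) in edgeR and -3.10 in DESeq2, both from low counts, and its edgeR adjusted p was 1.00.

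Dclre1c has 18 listed transcripts, 4 known and 14 predicted, of which 17 were tested. The most abundant, XM_006497461.2, held only 10.1% of the gene, and the known ones together held 16.1% and 17.6% in control and 15.2% and 16.0% in irradiated libraries. The known share of both irradiated libraries lay narrowly below that of the controls. That order was not itself tested, nor was it counted over other genes. For the shares of single Dclre1c transcripts, edgeR's diffSpliceDGE gave an unadjusted p of 0.987. All 17 tested transcripts had a fitted log2 fold change below 0, from -0.81 for NM_001362903.1 (16, 15, 10 and 9 counts) to -0.055 for XM_006497457.1. They belong to one gene and reads were shared out among them, so that their counts are not independent of each other, and 357 exonic bases of the gene overlap Suv39h2 on the opposite strand (1389 to 1494 counts). Transcript shares were tested in the 7 members that had several tested transcripts. Of these, 0 passed at an adjusted p under 0.05 in edgeR's diffSpliceDGE, against 0.253% of all genes in that test, and 0 at an unadjusted p under 0.05, against 6.12%. The F test form and limma's diffSplice also gave 0 of 7.

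**Figure D4:**
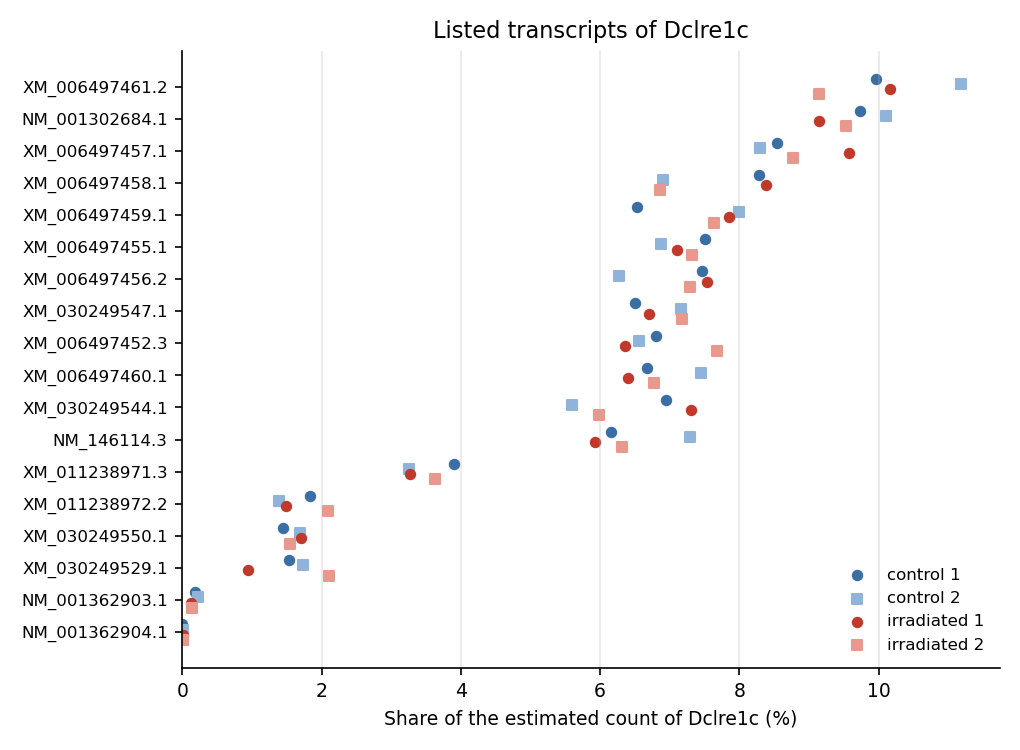
Share of the estimated Dclre1c count (%) held by each of its 18 listed transcripts in the 4 libraries, in the order of the mean share. Blue is control and red is irradiated, circles are libraries numbered 1 and squares libraries numbered 2, and the highest share of any transcript in a library is 11.2%.

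Other genes of break repair were set beside the end-joining core in 4 lists with 54 genes tested. The end-joining genes had a median of 37.3 TPM, above the list medians of 5.15 TPM for 9 accessory end-joining factors, 8.96 TPM for 12 genes of alternative end joining, 10.2 TPM for 14 genes of pathway choice at the break and 7.18 TPM for 19 genes of the homologous recombination core. These medians are descriptions of the lists and were not tested. Dntt, the lymphoid polymerase of the accessory list, was not listed in the table. The most abundant accessory factors were Tdp2 (33.7 TPM), which frees ends blocked by topoisomerase, and Aplf (27.8 TPM), a scaffold that binds Ku. Single genes of the other lists exceeded every end-joining gene. Among them were Hmces (700 TPM), a protein that shields abasic sites, Dynll1 (505 TPM) and Rnf8 (228 TPM) in pathway choice, and Rpa3 (156 TPM), a subunit of the single-strand binding complex RPA, in recombination. Parp2, at 31.1 TPM, was second in alternative end joining.

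The summed level of the 9 end-joining genes was 380 and 361 TPM in control and 362 and 429 TPM in irradiated libraries. Irradiated library 2 was the highest, and the groups overlapped. None of the 54 genes passed an adjusted p under 0.05 in edgeR, DESeq2 or limma on TPM. At an unadjusted p under 0.05, edgeR gave 2 higher and 1 lower of the 54, DESeq2 gave 2 in all and limma 0, against 5.92% of all genes in edgeR. The median log2 fold change was 0.0077 for accessory factors, -0.088 for alternative end joining, -0.059 for pathway choice and -0.063 for recombination, beside -0.026 for the end-joining core.

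The 3 genes at an unadjusted p under 0.05 sat in different lists, and each had an edgeR adjusted p of 0.708. Wrn, a helicase and exonuclease that Ku stimulates, had 906 and 854 counts in control oocytes and 631 and 807 after irradiation (log2 fold change -0.44, SE 0.125). H2ax, the histone variant phosphorylated around breaks and listed under pathway choice, had 740 and 856 counts in control oocytes and 912 and 2238 after irradiation (log2 fold change 0.78, SE 0.304), with irradiated library 2 far above the rest. Xrcc3, a homologous recombination factor, had 188 and 229 counts in control oocytes and 282 and 352 after irradiation (log2 fold change 0.45, SE 0.181). None of the 3 overlapped between the groups in normalized counts, and of the 54 genes 7 were higher and 13 lower without overlap, against 22.1% and 19.9% of all genes. In TPM the groups overlapped for Wrn (5.33 and 5.67 in control, 4.06 and 5.55 in irradiated libraries) and not for H2ax or Xrcc3. Without irradiated library 1, 22 of the 54 had an adjusted p under 0.05, against 34.3% of all genes, and without irradiated library 2 it was 2, against 0.791%.

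**Figure D5:**
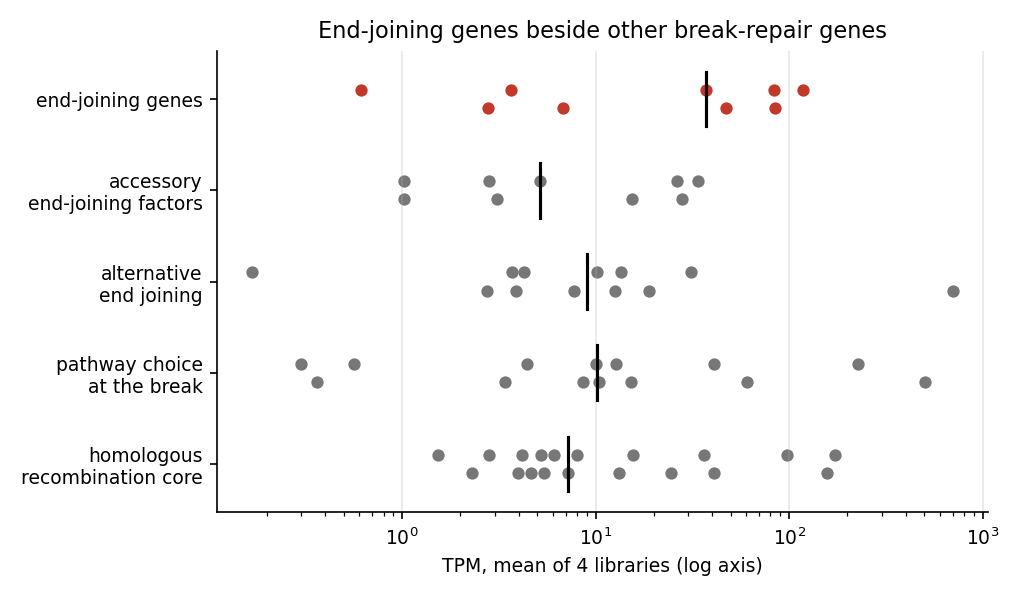
Mean TPM over the 4 libraries, on a log axis, of the 9 end-joining genes (red) and of the genes tested in the 4 other break-repair lists (grey), with a black bar at the median of each list. The end-joining median of 37.3 TPM is the highest of the 5, and single genes of the alternative, pathway choice and recombination lists lie above all 9.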

How the data were processed

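RNA-seq of GV oocytes was analysed in 4 libraries, grouped by the sample titles. The authors aligned paired-end reads of 100 bases to GRCm38 (mm10) with Bowtie2, and the submitters' processing notes also name HISAT2 and RSEM. The authors deposited estimated counts per RefSeq transcript, not scaled for library size, and TPM, which are scaled to a fixed total after a length correction. The annotation release is not given in the sources used here. A further 10 columns (4 FPKM, 6 of the authors' averages) were not used.

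Counts and TPM were summed per gene ID, and 17323 of 17374 IDs matched RefSeq symbols. Counts were rounded and tested in edgeR 4.0.16 (R 4.3.3) with filterByExpr (minimum count 10), TMM and glmQLFTest, with Benjamini-Hochberg adjustment over all features. The TMM factors were 0.923 and 0.975 (control) and 0.937 and 1.19 (irradiated). A feature was called past 2 on the log2 scale in either direction with an adjusted p below 0.05, the study's limits, and isoform usage was tested by diffSpliceDGE with Simes' method. Alternatives were DESeq2 1.42.0 without the filter, DESeq2 size factors, no filter, limma 3.58.1 on log2(TPM + 1) or log2(TPM + 0.1), a replicate block, and each library left out. With 1 library left in a group, that library is assumed to vary like the other group. The tests were run on simulated data, and no result of that check is reported here. That check is not taken to show that the small changes fitted for the end-joining genes could be detected.

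All 9 members were named. Named transcripts were among those with 10 or more counts in at least 2 libraries, and XM_006514758.3 and XM_017312854.2 were named after their values were seen. From each list the text names the 2 genes with the highest mean TPM and those with an unadjusted p under 0.05, except 1 gene that is not reported here. The members and lists were chosen with earlier results of these data known. Exon overlaps and transcript lengths came from GENCODE M21, and matplotlib 3.10.9 (Python 3.11.15) made the figures.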

Additional observations from a re-analysis of the deposited data

How the results depend on the processing

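With 2 libraries a group, intervals were wide, and a change of up to about 0.84 on the log2 scale (Poll) lay within them. Over 63 fold changes of the end-joining genes recomputed with all libraries kept, 0 were called, and adjusted p was 0.554 or more. The 9 that reversed were those of Xrcc6, Xrcc4 and Nhej1 on TPM, at 0.0949, 0.176 and 0.191 with a pseudocount of 1 (filter or no filter) and 0.0972, 0.179 and 0.193 with 0.1, where the median of all genes moved by 0.145 with the filter, 0.0793 without it, and 0.214 with 0.1. Over 36 values with 1 library left out, 11 reversed. The ranges were -0.32 to 0.050 for Xrcc6, -0.15 to 0.36 for Prkdc, -0.035 to 0.12 for Lig4, -0.23 to 0.14 for Xrcc4, -0.15 to 0.093 for Nhej1, -0.53 to 0.057 for Dclre1c and -0.034 to 0.19 for Polm, and -0.30 to 0.11 for the log2 ratio of Xrcc4 over Lig4, and 0.095 to 0.51 for that of Poll over Polm.

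Counts over all genes moved more. The 1 gene called by edgeR became 3 in edgeR with no filter, 4 in DESeq2 with no filter, 0 with limma on TPM in each of its 3 forms, and 16 to 84 with a library left out. The 0 transcripts called became 248 in DESeq2 with no filter and 247 with edgeR's exact test. The 16 genes called for isoform usage became 58 with the F test, 0 with limma's diffSplice and 1 to 29 with a library left out. The causes were not tested.

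The labels tie the replicate numbers to no shared day or batch, and the data do not settle whether they pair the libraries. Across genes, the difference of control 1 and 2 correlated with that of irradiated 1 and 2 at 0.0975. With the replicate number as a block, 7 genes were called in all and 3 for isoform usage, and 0 end-joining genes or transcripts at each level.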
